A study of Drosophila melanogaster with 3 samples.

Results

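Mediator, the general transcription factors and the RNA polymerases are the protein complexes that carry out transcription in the nucleus, and HmgD chromatin was examined at the promoters of the genes that encode them. The genes were chosen by symbol from the Ensembl annotation of the dm6 build: those starting with MED or Taf and a digit, those with TfII, and those starting with Polr and 1, 2 or 3. The rule used no measured value. It found 79 of the 18164 genes on the chromosome arms, all of them among the 13945 protein-coding genes: 25 MED, 15 Taf, 9 TfII, 7 Polr1, 13 Polr2 and 10 Polr3 genes. All 3 biological replicates of the series belong to 1 group, without another condition to compare. Each was chromatin from whole Drosophila melanogaster embryos, males and females pooled, aged 0 to 24 h, of the strain HmgD-GFP, which carries HmgD fused at its C terminus to GFP. Chromatin was immunoprecipitated with an antibody against GFP and sequenced. The labels give neither the promoter that drives the fusion nor whether untagged HmgD is also made, and whole embryos of this age range mix all cell types and stages.

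HmgD is a high-mobility-group box protein, an abundant embryonic chromatin protein that binds DNA without strong sequence preference and bends it. Mediator passes signals from DNA-bound activators to RNA polymerase II, and its core is built of a head, a middle and a tail module. TFIID, made of TBP and the TBP-associated factors (TAFs), recognises the core promoter, and TFIIA, TFIIB, TFIIE and TFIIF help to place RNA polymerase II there. RNA polymerase I transcribes the large ribosomal RNA precursor, polymerase II messenger RNAs, and polymerase III transfer RNAs and 5S RNA. Most of these genes are active in nearly all cells, and promoters of such genes in flies are known for the core-promoter words Motif 1 and DRE, the DNA replication-related element bound by Dref.

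Each replicate had a deposited list of candidate peaks, which holds background entries too, and 1 further list came from the pooled replicates. The authors' list of peaks that passed the irreproducible discovery rate (IDR) step held 2964 entries, 2106 of them with a summit within 500 bp of an annotated transcription start site (TSS). These were the pooled candidates of highest signal, the authors' own peak value: the lowest signal kept was 114.7 and the highest not kept 114.6. A peak in that list is called kept below, its rank counts from 1 at the highest pooled signal, and a gene has a promoter peak if a summit lies within 500 bp of any of its TSSs. The spread between replicates was taken from the 2964 strongest candidates of each replicate's own list. The lists hold no read counts, so the depth is unknown, and no control track entered the analysis, so binding by HmgD and background at open promoters cannot be told apart. With 1 group no test of a condition exists, and all values below describe these 3 replicates.

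The following stretches show the DNA under 7 kept summits, each reaching 100 bp to either side of the summit along the strand of the gene, in dm6. Capitals mark the words GGTCACAC (Motif 1) and TATCGATA (DRE), or their reverse complements. Polr2H, Taf1, MED10 and Polr3E are the members with Motif 1 at a kept summit. Polr1D carries the DRE, and MED4 and TfIIS, the strongest kept peaks of the MED and TfII genes, have neither word.
Polr2H, chr3L:21728630-21728830, plus strand: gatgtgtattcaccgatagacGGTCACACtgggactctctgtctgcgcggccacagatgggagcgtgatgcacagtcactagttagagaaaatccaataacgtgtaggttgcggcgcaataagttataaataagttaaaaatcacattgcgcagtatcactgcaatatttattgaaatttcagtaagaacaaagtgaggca
Taf1, chr3R:6646756-6646956, plus strand: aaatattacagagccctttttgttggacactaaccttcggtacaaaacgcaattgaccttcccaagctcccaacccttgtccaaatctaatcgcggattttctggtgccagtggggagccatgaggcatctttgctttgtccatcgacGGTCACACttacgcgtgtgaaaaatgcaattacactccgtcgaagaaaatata
MED10, chr3L:16231967-16232167, plus strand: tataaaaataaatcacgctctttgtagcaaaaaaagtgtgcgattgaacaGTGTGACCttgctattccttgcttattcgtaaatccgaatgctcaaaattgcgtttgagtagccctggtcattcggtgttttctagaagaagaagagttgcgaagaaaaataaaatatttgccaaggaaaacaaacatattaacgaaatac
Polr3E, chr3L:21031664-21031864, plus strand: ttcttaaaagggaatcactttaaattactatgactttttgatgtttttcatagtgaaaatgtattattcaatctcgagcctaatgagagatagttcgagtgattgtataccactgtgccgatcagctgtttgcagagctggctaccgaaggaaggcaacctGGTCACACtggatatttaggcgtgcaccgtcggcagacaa
Polr1D, chr2L:19133659-19133859, minus strand: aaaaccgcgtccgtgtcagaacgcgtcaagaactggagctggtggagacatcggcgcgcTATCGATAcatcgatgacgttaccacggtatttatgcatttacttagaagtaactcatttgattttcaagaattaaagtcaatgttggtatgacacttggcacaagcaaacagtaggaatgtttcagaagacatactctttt
MED4, chr3L:7250536-7250736, minus strand: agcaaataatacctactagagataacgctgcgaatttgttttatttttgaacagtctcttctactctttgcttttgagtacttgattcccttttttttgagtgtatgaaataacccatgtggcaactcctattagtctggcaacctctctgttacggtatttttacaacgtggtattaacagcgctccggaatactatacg
TfIIS, chr2L:15060739-15060939, minus strand: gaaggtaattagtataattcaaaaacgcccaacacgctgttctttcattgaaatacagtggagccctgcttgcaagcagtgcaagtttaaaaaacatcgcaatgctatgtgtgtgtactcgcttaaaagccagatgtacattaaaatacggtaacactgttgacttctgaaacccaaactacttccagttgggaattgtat

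The promoters of Polr2D, Polr2L and Polr3A are shown because they hold both words and no kept peak. Each runs from 250 bases before the outermost annotated start to 50 bases from it, and is credited, as are the stretches above, to the RefSeq Release 6 assembly.
Polr2D, chr3R:18255438-18255737, minus strand: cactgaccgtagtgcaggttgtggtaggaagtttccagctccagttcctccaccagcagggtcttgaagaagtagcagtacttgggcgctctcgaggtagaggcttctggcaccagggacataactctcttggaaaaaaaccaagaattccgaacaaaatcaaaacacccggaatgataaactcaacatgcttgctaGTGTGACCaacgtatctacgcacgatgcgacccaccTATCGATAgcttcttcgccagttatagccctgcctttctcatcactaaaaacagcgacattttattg
Polr2L, chr3R:24717261-24717560, plus strand: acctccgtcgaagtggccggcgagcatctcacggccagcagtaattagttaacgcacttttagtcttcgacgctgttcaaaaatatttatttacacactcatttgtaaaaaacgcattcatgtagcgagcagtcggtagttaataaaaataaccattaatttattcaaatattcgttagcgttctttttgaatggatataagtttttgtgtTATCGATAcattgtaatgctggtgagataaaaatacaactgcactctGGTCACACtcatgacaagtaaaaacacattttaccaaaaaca
Polr3A, chrX:15762706-15763005, plus strand: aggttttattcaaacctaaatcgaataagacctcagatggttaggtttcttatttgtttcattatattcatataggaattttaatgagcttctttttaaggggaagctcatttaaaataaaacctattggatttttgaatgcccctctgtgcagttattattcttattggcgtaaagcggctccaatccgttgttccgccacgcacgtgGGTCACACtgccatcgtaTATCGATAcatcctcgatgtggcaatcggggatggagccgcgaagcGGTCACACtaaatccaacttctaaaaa

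Promoters of the 79 genes carried a kept HmgD peak in 25 cases (31.6%), against 15.5% of all genes and 18.7% of protein-coding genes. In the single replicates the count was 26, 25 and 20 genes, or 30% ± 4.07 (SD, n = 3). The same measure over protein-coding genes was 18.3% ± 1.98 (SD, n = 3), with 20.5%, 17.9% and 16.6% in replicates 1, 2 and 3 (all genes 16.7%, 14.9% and 13.8%). The share of the members, 32.9%, 31.6% and 25.3% in replicates 1, 2 and 3, was thus the higher one in each replicate. Nearly all of the members had a candidate of some strength in the pooled list: 69 of 79 (87.3%), against 56.0% of protein-coding genes and 49.8% of all genes. Among genes with such a candidate, 36.2% of the members had a kept peak, close to the 33.4% of protein-coding genes and 31.2% of all genes. Over the replicates the shares among such genes were 34.3% ± 4.66 of the members and 32.5% ± 3.32 of protein-coding genes (SD, n = 3 each), a difference below the spread. The members stood apart in how many promoters held a candidate at all, and not measurably in how often a candidate was kept. The median rank of the strongest candidate was 4008 over the 69 members and 5345 over protein-coding genes with one. Leaving out replicate 1, 2 or 3, which also gave smaller peak sets, lowered the members' share to 20.3%, 17.7% and 22.8%. That of protein-coding genes fell to 10.8%, 10.5% and 12.6%, and that of all genes to 9.05%, 8.61% and 10.3%.

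The TfII genes had the highest share and the Polr3 genes the lowest. A kept promoter peak was found at 5 of 9 TfII genes (55.6%; 55.6% ± 11.1 over the replicates, SD, n = 3) and at 1 of 10 Polr3 genes (10%; 13.3% ± 11.5, SD, n = 3). Replicate counts were 5, 6 and 4 for TfII and 2, 2 and 0 for Polr3, so the TfII share was the higher one in each replicate, although each family has 10 genes or fewer. MED genes had 9 of 25 (36.0%; 33.3% ± 4.62, SD, n = 3) and Polr2 genes 4 of 13 (30.8% in every replicate). Taf genes had 4 of 15 (26.7%; 22.2% ± 7.70, SD, n = 3) and Polr1 genes 2 of 7 (28.6%; 23.8% ± 8.25, SD, n = 3). In the replicates the MED share ran between 28% and 36.0%, above the Taf share at 13.3% to 26.7% and overlapping the Polr1 share at 14.3% to 28.6%. The 30 polymerase genes together had 7 (23.3%; 23.3% ± 5.77, SD, n = 3). Protein-coding genes were at 18.7% (18.3% ± 1.98 over the replicates, SD, n = 3). The replicate means of the Taf, Polr1, Polr3 and combined polymerase genes lay within their own SD of that share. Those of the MED, TfII and Polr2 genes lay above it by more than their SD. That SD measures how evenly the same genes were called in the replicates and takes no account of family size. For Polr2 it was 0, as the same 4 of 13 genes were called each time. No family is therefore read from it as different from protein-coding genes. In the smaller sets without replicate 1, 2 or 3, where protein-coding genes were at 10.8%, 10.5% and 12.6%, the order changed. MED genes were at 24.0%, 16% and 20%, Taf genes at 13.3%, 20% and 13.3%, TfII genes at 33.3%, 33.3% and 55.6%, Polr1 genes at 14.3%, 0% and 14.3% and Polr3 genes at 0%, 0% and 10%. Polr2 genes stayed at 30.8% in each of these sets, so that TfII was highest and Polr3 lowest or level with the lowest throughout.

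**Figure D1:**
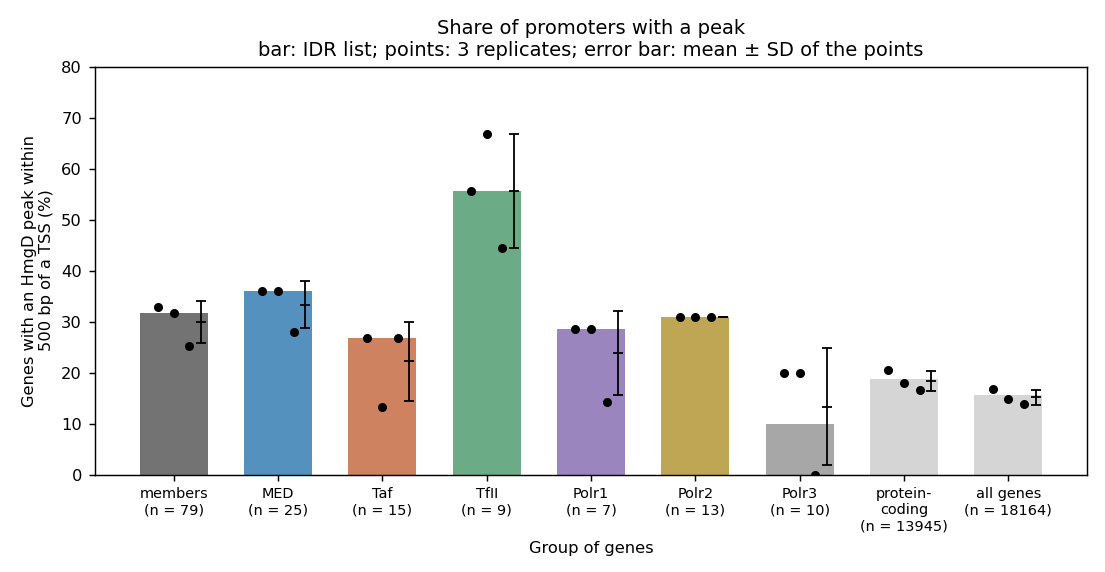
Percentage of genes with an HmgD peak within 500 bp of a TSS, for all 79 members, each symbol family, protein-coding genes and all genes; bars give the kept peaks, points the strongest candidates of each of the 3 replicates and error bars their mean ± SD. TfII genes reach 55.6%, Polr3 genes 10% and all genes 15.5%.

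**Figure D2:**
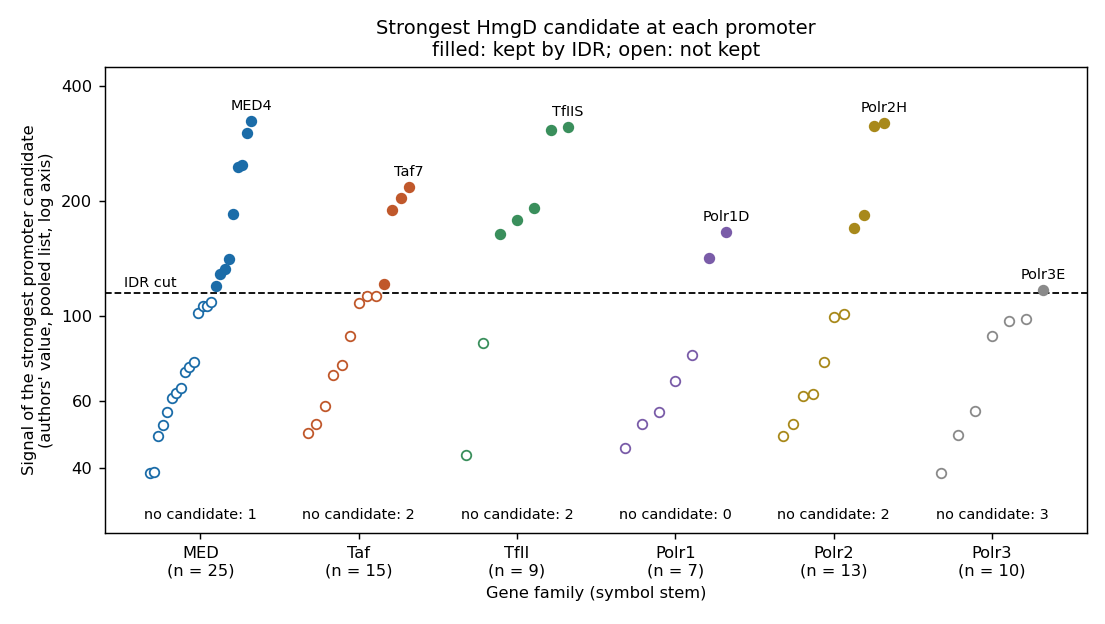
Signal of the strongest promoter candidate of each member in the pooled list, on a log axis, by symbol family, with filled points kept and open points not kept; the dashed line is the lowest signal kept, 114.7, and the number of members with no candidate stands below each family. The strongest members, MED4, Polr2H, Polr2F, TfIIS, TfIIA-S and MED30, lie at 302 to 324, while Polr3E, at 117, lies just above the line.

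Mediator genes held the single strongest peak of the set. MED4, which encodes a middle-module subunit (FBgn0035754), had a peak at chr3L:7250434-7250837 with a signal of 324, rank 177, and a summit 109 bp upstream of its TSS. The nearest TSS to that summit, at an offset of -4 bp, was that of asRNA:CR43470. The matched candidate ranked at percentiles 99.4, 98.4 and 99.5 in replicates 1, 2 and 3 (99.1 ± 0.626, SD, n = 3), near the top of each list. MED30, a subunit found in animal Mediator and not in yeast, followed at chr3L:654096-654499 with a signal of 302, rank 216. Its percentiles were 99.5, 99.7 and 93.1 (97.4 ± 3.75, SD, n = 3), lowest in replicate 3. MED6, a head subunit, had a peak at chr3R:9767616-9768019 with a signal of 249, rank 437, and percentiles of 96.1, 98.4 and 99.1 (97.9 ± 1.54, SD, n = 3). These 3 genes, and MED27 with a signal of 245 and rank 459, were among the strongest candidates of every replicate.

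The other kept Mediator peaks were weaker and ranked less evenly. MED21 and MED10, middle subunits, had signals of 185 and 141, and MED31, a small middle subunit conserved from yeast, had 120. For MED21 the percentiles were 98.9 in replicate 1 and 81.2 in replicate 3, and replicate 2 had no candidate within 200 bp. MED9, also of the middle module, had a signal of 129 and percentiles of 29.6, 97.7 and 78.2 (68.5 ± 35.0, SD, n = 3), so it rested mainly on replicate 2. MED16, a tail subunit, had a signal of 133 and percentiles of 93.2, 95.3 and 74.8 (87.8 ± 11.3, SD, n = 3). By module, a grouping made after the values were seen, kept peaks stood at 1 of 7 head genes (14.3%; 19.0% ± 8.25 over the replicates), 5 of 9 middle genes (55.6%; 40.7% ± 6.42) and 3 of 9 tail and animal-specific genes (33.3%; 37% ± 6.42; SD, n = 3 each). The share over protein-coding genes was 18.7%. Without replicate 1, 2 or 3 the peak sets were smaller, and protein-coding genes were at 10.8%, 10.5% and 12.6%. In these sets the middle genes were at 33.3%, 11.1% and 11.1% and the tail and animal-specific genes at 22.2%, 22.2% and 33.3%. The head genes stayed at 14.3% in each set. The middle genes were thus highest without replicate 1 and lowest without replicate 2 or 3. The strongest Mediator candidate that was not kept was at MED7, a middle subunit, with a signal of 109, rank 3283. It was at percentiles 95.2 and 80.1 in replicates 1 and 2 and unmatched in replicate 3.

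Among the TFIID genes, Taf7 had the strongest peak. Taf7, whose product binds Taf1 (FBgn0024909), had a kept peak at chr3R:7907309-7907712 with a signal of 218, rank 640, at percentiles 97.9, 95.2 and 97.8 (97.0 ± 1.53, SD, n = 3). Taf4, a histone-fold subunit that pairs with Taf12, had a signal of 204, rank 770, at chr3L:16113512-16113915, with percentiles of 98.3, 96.5 and 94.9 (96.6 ± 1.68, SD, n = 3). Taf1, the largest TFIID subunit and a scaffold of the complex, had a signal of 190, rank 949, at chr3R:6646654-6647057. Its percentiles were 97.1, 89.9 and 96.7 (94.5 ± 4.05, SD, n = 3), lowest in replicate 2. Taf2, which contacts the initiator, had a weaker peak with a signal of 121 and percentiles of 94.2, 74.1 and 81.9 (83.4 ± 10.1, SD, n = 3).

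Of the 10 TAF genes with a histone fold, grouped after the values were seen, Taf4 was the only one with a kept peak (10%; 13.3% ± 5.77 over the replicates, SD, n = 3). Of the 4 without a histone fold, Taf1, Taf2 and Taf7 had one and Taf5 did not (75.0%; 50% ± 25.0, SD, n = 3). Among protein-coding genes the share was 18.7%. The histone-fold share was 10% without replicate 1, 2 or 3, and the other share fell to 25.0%, 50% and 25.0%. In those smaller sets the share of protein-coding genes was 10.8%, 10.5% and 12.6%. Taf10 and Taf10b, 2 paralogous subunits transcribed in opposite directions, shared a summit just below the limit, at chr2L:2767612-2768015 with a signal of 113 and rank 3048. It lay 76 bp upstream of the Taf10 TSS and 31 bp inside Taf10b, at percentiles 76.7, 77.2 and 84.4 (79.4 ± 4.30, SD, n = 3). Taf13 had a signal of 108 at rank 3296. Of the 10 histone-fold genes, 3 thus had a candidate just under the limit, 2 of them sharing 1 summit.

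The TfII genes had strong peaks at 3 different factors. TfIIS, which lets a stalled RNA polymerase II cut back its transcript and resume (FBgn0010422), had a peak at chr2L:15060637-15061040 with a signal of 313, rank 199, and percentiles of 99.1, 98.7 and 99.5 (99.1 ± 0.389, SD, n = 3). TfIIA-S, the small subunit of TFIIA, which stabilises TBP on the promoter, had a signal of 307, rank 205, at chr3R:23890930-23891333, with percentiles of 98.8, 99.3 and 99.1 (99.1 ± 0.243, SD, n = 3). TfIIEalpha, the large subunit of TFIIE, had a signal of 192, rank 909, at chr3L:11681786-11682189, with percentiles of 94.9, 98.3 and 96.0 (96.4 ± 1.72, SD, n = 3). At these 3 genes the kept summit lay 50 to 82 bp upstream of the TSS with no other TSS within 500 bp.

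TfIIA-L, which encodes the large TFIIA subunit, carried a pair of kept peaks. The stronger had a signal of 179 and percentiles of 97.7, 96.1 and 82.2 (92.0 ± 8.51, SD, n = 3), and the weaker a signal of 125 and percentiles of 85.1, 91.8 and 73.0 (83.3 ± 9.53, SD, n = 3). TfIIB, the factor that bridges TBP and polymerase, had a signal of 164 and percentiles of 95.1, 91.0 and 64.3 (83.4 ± 16.7, SD, n = 3). These are for the matched summit, and in replicate 3 a different TfIIB promoter summit was among the strongest candidates. The 2 TFIIF genes, whose products accompany polymerase to the promoter, had candidates only. TfIIFalpha had a signal of 85.0, rank 5385, at percentiles 80.6, 92.6 and 24.7, and TfIIFbeta ranked 22660. TfIIEbeta, the partner of TfIIEalpha, had no pooled candidate, and neither had TfIIA-S-2, a paralog of TfIIA-S.

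RNA polymerase II genes were led by a pair of subunits that serve all 3 polymerases. Polr2H (FBgn0037121) had a kept peak at chr3L:21728658-21728828 with a signal of 320, rank 184, and percentiles of 99.7, 98.9 and 98.8 (99.1 ± 0.496, SD, n = 3). Polr2F had a signal of 315, rank 194, at chr3R:5371565-5371968, with percentiles of 99.0, 99.5 and 98.9 (99.1 ± 0.324, SD, n = 3). Polr2C, a polymerase II subunit of the assembly core, had a signal of 184, rank 1021, at chr2L:13833028-13833431, with percentiles of 96.3, 96.6 and 92.5 (95.2 ± 2.27, SD, n = 3). Polr2B, the second-largest subunit, had a signal of 170 and a summit exactly on its TSS. All 4 were among the strongest candidates of every replicate. Polr2A, which encodes the largest subunit and lies on X, had only a weak candidate with a signal of 61.7 at rank 10896. The strongest candidate not kept was at Polr2D, with a signal of 101, rank 3845, and percentiles of 54.1, 89.2 and 90.0 (77.8 ± 20.5, SD, n = 3). By complex, kept peaks stood at 2 of the 5 genes for subunits shared by all 3 polymerases, 2 of the 7 for polymerase II alone, 1 of the 2 for subunits shared by polymerases I and III, 1 of the 5 for polymerase I alone and 1 of the 10 for polymerase III alone. The share over protein-coding genes was 18.7%, and each of these groups has 10 genes or fewer.

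Kept peaks stood at 2 of the 7 Polr1 genes and 1 of the 10 Polr3 genes, with signals below those of the leading Polr2 peaks. Polr1D, a subunit shared by polymerases I and III, had one at chr2L:19133557-19133960 with a signal of 166, rank 1329. The matched candidates were at percentiles of 78.7, 65.9 and 26 (56.9 ± 27.5, SD, n = 3), low for that pooled rank. In replicate 1 a different summit within 500 bp of a Polr1D TSS was among the strongest candidates. A further Polr1D peak at another TSS, chr2L:19135006-19135409, had a signal of 133 and percentiles of 65.0, 94.1 and 95.0 (84.7 ± 17.1, SD, n = 3). Polr1E had a signal of 142 and percentiles of 94.5, 90.4 and 72.4 (85.8 ± 11.7, SD, n = 3). Polr3E, at chr3L:21031562-21031965, was the only Polr3 gene with a kept peak, and its signal of 117 (rank 2871) was close to the limit. Its percentiles were 88.9, 87.4 and 79.9 (85.4 ± 4.83, SD, n = 3), even across the replicates. Polr1F (signal 79.3, rank 6205; percentiles 87.6 and 82.6, unmatched in replicate 3) had the strongest Polr1 candidate that was not kept.

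**Figure D3:**
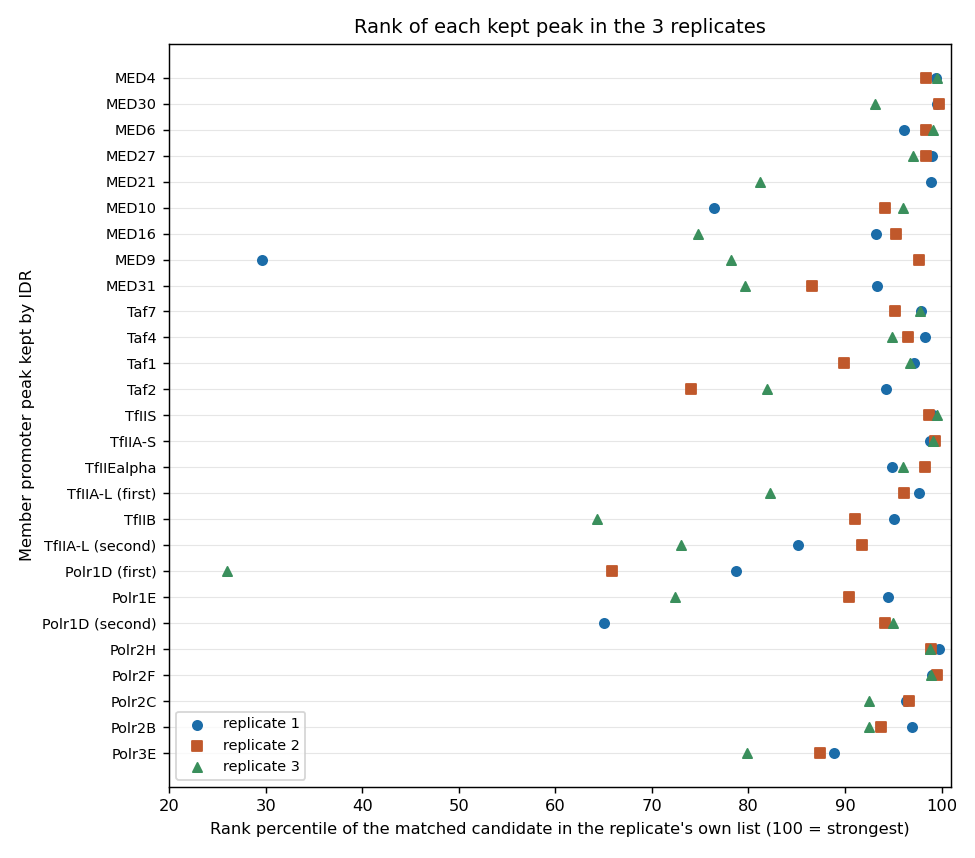
Rank percentile of each of the 27 kept member peaks in the 3 replicates' own candidate lists (100 is the strongest), by family and pooled rank. MED4, TfIIS, TfIIA-S, Polr2H and Polr2F lie between 98.4 and 99.7 in every replicate, while MED9 spans 29.6 to 97.7 and the first Polr1D peak 26 to 78.7.

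The 25 genes had 27 kept peaks, of which 13 (48.1%) were matched among the strongest candidates of all 3 replicates, 7 (25.9%) of 2, 5 (18.5%) of 1 and 2 (7.41%) of none. Over all promoter peaks kept, the shares were 43.5%, 34.8%, 19.9% and 1.71%. Counted by gene, where different summits may stand in for each other, 15 members (19.0%) had a promoter peak among the strongest candidates of all 3 replicates, against 9.91% of protein-coding genes. They were MED4, MED6, MED27, MED30, Taf4, Taf7, TfIIA-S, TfIIB, TfIIEalpha, TfIIS, Polr1D, Polr2B, Polr2C, Polr2F and Polr2H, and each also had a kept peak. A further 19 members had one in 1 or 2 replicates and 45 in none. The kept peaks of the members had a median rank of 1021, against 1426 for all promoter peaks kept, and 18 of the 27 were among the 1482 peaks of higher signal.

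A candidate that was not kept was the commonest state, found at 44 of the 79 genes. For 11 of them it ranked no lower than 4500, among them MED7, MED19, MED23, MED25, Taf10, Taf10b, Taf13, Polr2D, Polr2E and Polr3D. The other 33 ranked lower, the last at 27888 (Polr3B). The pooled list had no candidate at 10 promoters: MED15, Taf3, Taf12L, TfIIA-S-2, TfIIEbeta, Polr2L, Polr2M, Polr3A, Polr3I and Polr3K. Of these, MED15, Taf12L, TfIIA-S-2 and Polr3K, had none in any replicate list either. Taf12L and TfIIA-S-2 are paralogs of Taf12 and TfIIA-S. The window set the state of a few genes. The kept summit farthest from its member TSS was 361 bp upstream of TfIIB, with a signal of 164 and rank 1363. The nearest one outside was 584 bp upstream of MED15, a tail subunit targeted by activators, with a signal of 255 and rank 401 at chr2L:472227-472630. A window of 250 bp left out TfIIB, and one of 1000 bp added MED15. No kept summit lay inside a member gene outside a promoter window.

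None of the 8 members on X had a kept peak, and none had a promoter peak among the strongest candidates of any replicate. Pooled candidates were present at 5 of the 8. On the other chromosomes 25 of 71 members (35.2%) had a kept peak. Protein-coding genes showed little of such a difference, with 17.6% on X and 18.9% elsewhere. With 8 genes a count of 0 is a small sample, and the X-linked members were Polr2A, Polr3A, Polr3I, MED18, MED22, Taf8, Taf9 and TfIIA-S-2.

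Kept summits lay just upstream of the members' start sites. The median offset was -72.0 bp (range -361 to 27, negative is upstream) over the 27 peaks, against -68.0 bp over all 3004 pairs of a kept peak and a gene with a TSS in its window. Upstream summits made up 85.2% of the member peaks and 79.5% of all pairs, and 17 of the 27 were within 100 bp of the TSS. By annotation 16 summits lay between genes, 7 in a 5' UTR and 4 in an intron. Offsets of the members were close to those of kept promoter peaks in general. Polr2H had the only member peak narrower than the usual 404 bp (3.70% of the member peaks, 8.26% of all promoter peaks kept). GC content in the 201 bp around the summit had a median of 40.8% (range 28.4% to 53.7%), against 42.3% at the other kept promoter summits.

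**Figure D4:**
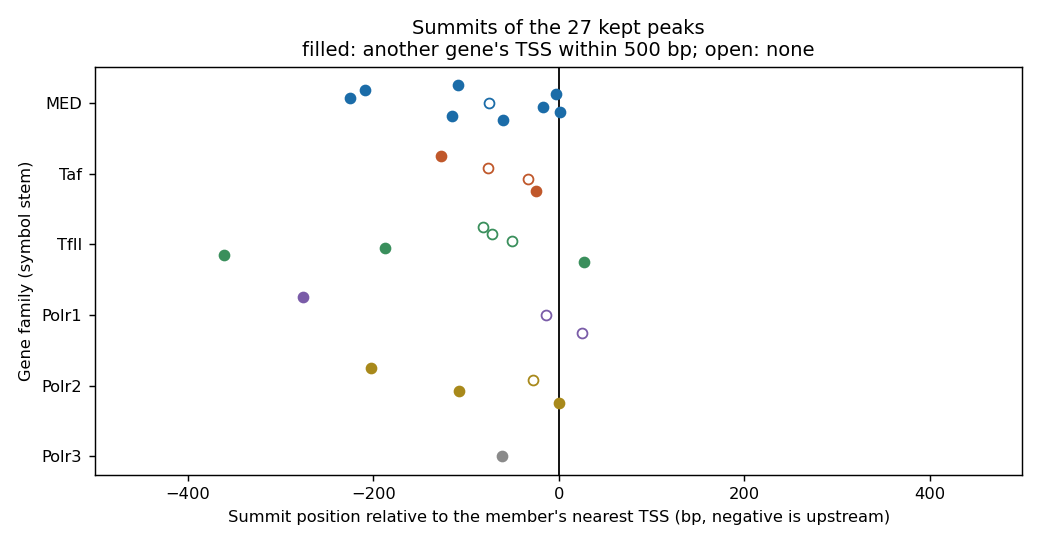
Position of the 27 kept summits relative to the nearest TSS of the member gene, in bp, by symbol family; filled points have the TSS of another gene within 500 bp. The summits run from -361 to 27 bp with a median of -72.0 bp, and 18 of 27 are filled.

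Many of these summits were shared with a neighbouring gene. Another gene's TSS lay within 500 bp of 18 of the 27 member summits (66.7%), against 37.9% of all promoter peaks kept. The 37.9% counts each peak once, whereas member peaks were reached through genes, which favours peaks with several genes in the window. The 2 shares are thus not on the same basis, and no excess at the members is read from them. At 8 of the 27 that other TSS was the nearer one, 0 to 65 bp from the summit. The kept peak of Polr2H was 202 bp from the Polr2H TSS and 57 bp from that of CG11247. Likewise the MED30 peak was 209 bp from MED30 and 65 bp from Rev1, a translesion DNA polymerase gene, and the TfIIB peak was 361 bp from TfIIB and 59 bp from Bug22. The first Polr1D peak was 276 bp from Polr1D and 57 bp from brat, a translational repressor gene, and the stronger TfIIA-L peak was 187 bp from TfIIA-L and 61 bp from pll, a kinase gene of the Toll pathway. Peaks with no other TSS in the window were those of MED21, Taf1, Taf4, TfIIS, TfIIA-S, TfIIEalpha, Polr1E and Polr2F and the second of Polr1D. When each peak was counted only for its nearest TSS, 19 members (24.1%) had one, against 13.9% of protein-coding genes and 11.2% of all genes. MED4, MED9, MED27, MED30, TfIIB and Polr2H then no longer did. At these promoters the 2 genes cannot be told apart as the site of a peak.

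Divergent promoters were common among the members. Of the 79 genes, 49 (62.0%) had a divergent partner, here another protein-coding gene on the opposite strand whose TSS lies at most 500 bp upstream, against 27.4% of protein-coding genes. The count was 17 for MED, 9 for Taf, 4 for TfII, 4 for Polr1, 8 for Polr2 and 7 for Polr3 genes. With a partner, 16 of 49 members (32.7%; 32.7% ± 5.40 over the replicates) had a kept peak, against 35.5% (34.6% ± 6.85) of protein-coding genes with one (SD, n = 3 each). Without a partner, 9 of 30 members (30%; 25.6% ± 3.85) had one, against 12.4% (12.2% ± 0.149) of protein-coding genes (SD, n = 3 each). Without a partner the gap between members and protein-coding genes was larger than the spread between replicates, and with one it was smaller. That spread takes no account of the small number of members, and the difference between the gaps was not tested. With a candidate required as well, the shares were 35.6% of members and 43.4% of protein-coding genes with a partner, and 37.5% of members and 26.8% of protein-coding genes without. In the sets without replicate 1, 2 or 3, members without a partner were at 20%, 23.3% and 23.3%, against 7.34%, 6.56% and 7.74% of protein-coding genes. Members with one were at 20.4%, 14.3% and 22.4%, against 20.2%, 21% and 25.3%. The number of annotated starts also moved with the result: 19 of 70 members with 1 TSS (27.1%) had a kept peak, against 14.5% of such protein-coding genes, and 6 of 9 members with more (66.7%), against 30.5%.

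**Figure D5:**
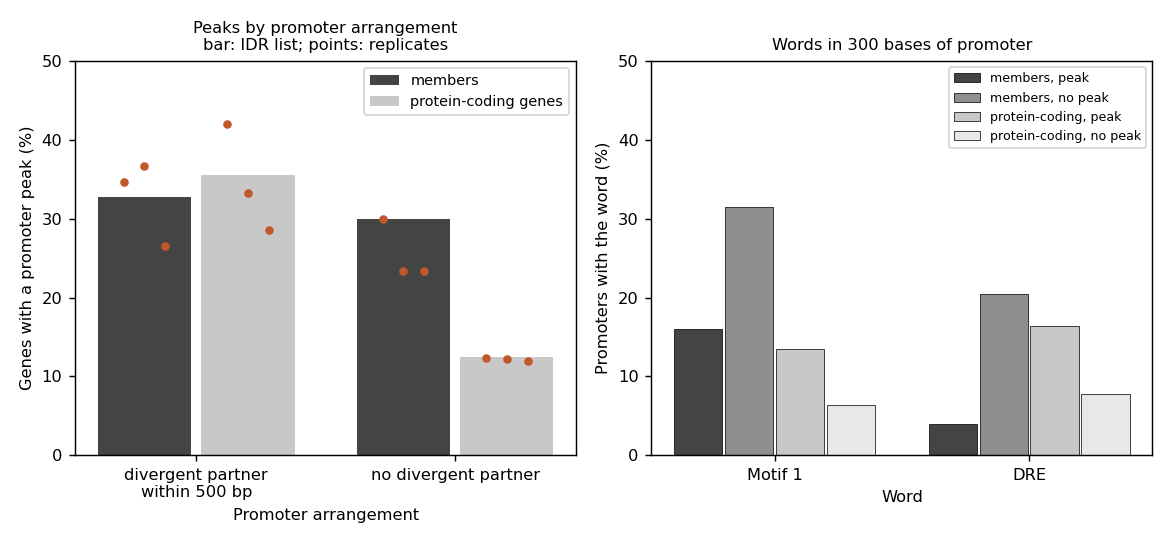
Left, percentage of members and of protein-coding genes with a kept promoter peak (bars) and in each replicate (points), by whether a divergent protein-coding partner lies within 500 bp: 32.7% and 35.5% with a partner, 30% and 12.4% without. Right, percentage of 300-base promoters with Motif 1 or the DRE, for members and protein-coding genes with and without a kept peak; members without a peak have the highest bar for each word, 31.5% and 20.4%.

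Motif 1 was frequent in promoters of the members and more so in those without a kept peak. GGTCACAC, searched on both strands, occurred in 21 of the 79 promoters of 300 bases shown above for Polr2D, Polr2L and Polr3A (26.6%), against 7.70% of all protein-coding promoters of the same length. It was in 4 of 25 members with a kept peak (16%) and 17 of 54 without (31.5%), while among protein-coding genes it was in 13.5% with and 6.38% without. Limited to genes with a candidate that was not kept, the share was 27.3% of members and 11.1% of protein-coding genes. The order with and without a peak thus ran opposite ways in members and in protein-coding genes, a difference that was not tested. The stretch searched lies at the outermost start and need not hold the kept summit. Polr2H, with Motif 1 at its kept summit, counted here as a promoter without the word. By family Motif 1 was in 9 of 25 MED, 3 of 15 Taf, 4 of 13 Polr2 and 5 of 10 Polr3 promoters and in none of the 9 TfII or 7 Polr1 promoters. The TfII genes, with the highest share of kept peaks, thus had no promoter with the word. The Polr3 genes, with the lowest, had the highest share of it (50%). Such an inverse pattern did not hold in the other families. MED genes were at 36.0% for kept peaks and for Motif 1, and Polr2 genes at 30.8% for both. Polr1 genes, with 28.6% kept, had no promoter with the word, and Taf genes, with 26.7% kept, had 3 of 15. No relation across families is read from these shares.

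The DRE showed the same order with and without a kept peak as Motif 1. TATCGATA occurred in 12 of 79 member promoters (15.2%), against 9.36% of protein-coding promoters. It was in 1 of 25 members with a kept peak (4%, MED9) and 11 of 54 without (20.4%), against 16.4% and 7.73% of protein-coding genes with and without a peak. Polr1D, with the DRE at a kept summit away from the searched stretch, counted here as a promoter without it. Either word was in 29 member promoters (36.7%), against 16.1% of protein-coding promoters. Both were in 4, those of MED8, Polr2D, Polr2L and Polr3A, none of which had a kept peak. In the Polr3A promoter printed above, GGTCACAC stands on either side of the DRE.

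Directly at the kept summits, within 100 bp, word shares at members and elsewhere differed by a few summits at most. Motif 1 was at 4 of 27 member summits (14.8%), those of Polr2H, Taf1, MED10 and Polr3E printed above, against 9.67% of the 2079 other promoter summits kept. The DRE was at 2 (7.41%), those of MED9 and the first Polr1D peak, against 11.1%. CGATA, which is contained in TATCGATA and bound by the insulator protein BEAF-32, was at 11 (40.7%), against 45.4%, and the CTCF core AGGTGGCGC at none, against 1.01%. TATAAA was at 8 (29.6%), against 18.4%, and the A tract AAAAAAA at 7 (25.9%), against 15.9%. MED4 and TfIIS, whose printed stretches hold neither promoter word, had mean percentiles of 99.1 over the replicates, as did Polr2H, whose stretch has Motif 1.

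Other machinery genes, listed by symbol and here including coactivator and mitochondrial transcription genes, gave a like share only as a whole. Of 74 genes, 22 (29.7%; 30.6% ± 6.67 over the replicates, SD, n = 3) had a kept promoter peak and 62 a pooled candidate. Among protein-coding genes 18.7% had a kept peak. Most of the 22 came from 2 lists, TFIIH and the pausing and elongation factors. TFIIH, the helicase and kinase factor that opens the promoter, had 6 of 10 (60%; 53.3% ± 11.5, SD, n = 3), led by Ssl1 with a signal of 943, rank 7, a peak shared with Chro. Pausing and elongation factors had 9 of 17 (52.9%; 45.1% ± 8.99, SD, n = 3), led by Nelf-E with a signal of 321, shared with the ribosomal protein gene RpL14. In the sets without replicate 1, 2 or 3, TFIIH was at 20%, 20% and 60% and the pausing and elongation factors at 23.5%, 23.5% and 35.3%. Protein-coding genes were then at 10.8%, 10.5% and 12.6%, and all genes at 9.05%, 8.61% and 10.3%. SAGA and ATAC coactivator genes had 3 of 21 (14.3%; 19.0% ± 4.76, SD, n = 3), with Spt7 highest at a signal of 184. Tbp, Trf and Trf2, the genes for the TATA-binding protein and its relatives, had candidates and no kept peak. The candidate of Tbp, the DNA-binding subunit of TFIID, had a signal of 57.2 at rank 12881. Mediator genes under other symbols (skd, kto, CycC and Cdk8) had 1 of 4, skd with a signal of 166. The 4 testis TAF genes used, can, mia, nht and sa, had none. The skd summit, at an offset of -497 bp, lay at the window edge and was shared with Pdss2. Factors of polymerases I and III had 2 of 8 (25.0%; 37.5% ± 12.5, SD, n = 3), Bdp1 with a signal of 403 and Brf with 264, both TFIIIB subunits with higher signals than any Polr1 or Polr3 gene. Mitochondrial transcription genes had 1 of 7, PolrMT with a signal of 201. The peaks of Spt7, Bdp1, Brf and PolrMT also had another gene's TSS in the window.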

How the data were processed

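Chromatin immunoprecipitation with an anti-GFP antibody was measured in 3 biological replicates of 1 group, and per the labels chromatin was sonicated to fragments of 200 to 800 bp. Per the files' own descriptions, candidate lists were made per replicate and on pooled replicates, and a further list holds peaks that passed IDR. For the aligner, the peak caller and the IDR threshold the sources used here give no name or value. The deposited signal value of each peak is the authors' own. The deposited −log10 q of each peak was not used. Read depth is unknown, and control data were not used here.

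The dm6 lists were read with Python 3.11.15, numpy 2.4.6 and pandas 2.3.3 (figures with matplotlib 3.10.9), with 1-based summits, the Ensembl 115 annotation and the Release 6 sequence. A summit was matched to one in another list if each was the other's nearest, at most 200 bp away. Replicate shares used the 2964 strongest candidates of each list. Rank percentiles were taken within a list. The dm3 lists were left out. Genes named are the members with a kept peak, with full values for the 3 strongest of each family, the strongest candidate of each family that was not kept, the genes at the window edge and the strongest gene of each other list. An item covered by this rule is not reported here. Other members are named where a count or a contrast turns on them and were chosen after their values were seen. Of 83 symbols of other machinery genes, 74 were used, 3 were members, 1 was a repeat and 5 were unmatched. Members, lists and words were chosen with earlier results of these data known. Alternatives covered the window, the nearest or outermost TSS, the 1482 kept peaks with the higher signals, the sites strong in all replicates, and leaving out each replicate, for which pooled candidates among the strongest of both remaining replicates stood in for the IDR list. The scripts were tested on simulated data.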

Additional observations from a re-analysis of the deposited data

How the results depend on the processing

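No paired analysis was possible because there was 1 group. Of 132 alternative values, 63 moved by no more than the SD between replicates and 69 by more. Only the median offset could change sign, and it stayed upstream of the TSS in each of its alternatives. Shares fell with smaller peak sets, as those of all genes and of protein-coding genes did. These were 8.53% and 10.4% for the 1482 peaks of higher signal, and 7.26% and 8.81% for the consensus of the 3 replicates. For the 1482 peaks the shares were 22.8% of members, 20% of MED, 14.3% of Polr1 and 20.3% of other machinery genes, with a median offset of -94.5 bp and percentile of 97.7. In the consensus they were 16.5% of members, 16% of MED, 13.3% of Taf, 33.3% of TfII, 0% of Polr1 and 12.2% of other machinery genes. Counting only the nearest TSS gave 24.1% of members, 20% of MED, 23.1% of Polr2 and 16.2% of other machinery genes, and requiring a candidate gave 36.2% of members. Leaving out 1 replicate gave 17.7% to 22.8% of members, 16% to 24.0% of MED, 13.3% to 20% of Taf, 33.3% to 55.6% of TfII, 0% to 14.3% of Polr1 and 14.9% to 25.7% of other machinery genes. The median offset was then -94.5 to -74.0 bp and the percentile 97.7 to 98.5. The DRE was at 0% of member summits in each of these sets, and at 14.8% when searched within 200 bp. Members with a candidate were 72.2% for a window of 250 bp, 91.1% for 1000 bp, and 78.5%, 81.0% and 79.7% in the lists of replicates 1, 2 and 3. The cause of these shifts was not tested. Families of 7 to 25 genes and 27 peaks limit each share to coarse steps.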
